A study of Mus musculus with 6 samples.

Results

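Pre-mRNA splicing regulators were examined in epididymal white adipose tissue (eWAT), the fat pad beside the epididymis, of cold-exposed and control mice. The set was defined by gene symbol, with earlier results of these data known. It holds every protein-coding gene of the GENCODE M21 annotation named Srsf, Tra2a or Tra2b, Hnrnp, Ptbp1 to Ptbp3, Rbfox1 to Rbfox3, Mbnl1 to Mbnl3 or Celf1 to Celf6. It has 48 of 21815 protein-coding genes, made up of 13 SR and Tra2 genes, 23 hnRNP and Ptbp genes and 12 Rbfox, Mbnl and Celf genes. Polyadenylated RNA came from male wild type C57BL/6N mice aged 20 weeks, in 6 libraries of 1 mouse each. The cold group (cold 7, cold 12 and cold 16) was kept at 4 °C for 24 h in single cages, and the ctrl group (ctrl 5, ctrl 6 and ctrl 10) served as controls. The treatment note is the same on all 6 labels, the usual housing is given as 22 to 24 °C, and how the ctrl mice were caged is not stated in these sources. Each number names a mouse, and the errors below measure the spread between mice.

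SR proteins carry RNA recognition motifs and a domain rich in arginine and serine, bind exonic enhancers and mostly promote the use of the exon they bind. The hnRNP proteins coat nascent transcripts and often oppose exon use, and Ptbp proteins bind pyrimidine-rich tracts near splice sites. Rbfox, Mbnl and Celf proteins set exon choice in brain, muscle and heart, where Mbnl and Celf proteins often act against each other. Many SR and hnRNP genes limit their own protein output by splicing their RNA into forms with a premature stop codon, through a poison exon, an exon skip or splicing beyond the normal stop, and such RNA is a target of nonsense-mediated decay (NMD). Others keep an intron and hold that RNA in the nucleus. The classes NMD and retained intron are used below as the annotation labels transcripts, and decay itself was not measured.

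The premature stop codons of the annotated NMD transcripts show how differently the families are built. Each line gives the 24 bases before the stop in lower case and the stop codon in capitals, read in the direction of the transcript from the GENCODE M21 transcript sequences. The first 6 stops lie in exons that no protein-coding transcript of the gene holds, and the Ptbp stops follow a junction that joins coding exons in a way no coding transcript does, with no base outside coding exons.
Tra2a-202: aaattgaacagaagattggtcagaTAG
Tra2b-206: gagtatttgaagctcaggaataagTGA
Srsf3-201: atcatgtctcttctcaccaccctcTGA
Srsf7-203: tttcttcgtttgagtcagtcgcctTGA
Hnrnpl-213: ttcagaactgtgctaactcactgtTGA
Hnrnpll-203: aaacttcttgaaagaagcccacttTGA
Ptbp1-201: gcgtctacggtgatgtgcagcgggTGA
Ptbp2-206: gtgtttatggagatgtgcagcgcgTGA

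The Ptbp1 and Ptbp2 windows are identical at 22 of 27 bases, and in both transcripts the stop lies 361 bases before the last exon junction. The poison exons of Tra2a-202 and Tra2b-206 are 306 and 276 bases long, with 964 and 1015 bases from stop to last junction. Srsf3-201 adds an exon of 456 bases, Hnrnpll-203 one of 83 and Hnrnpl-213 one of 70. Among the 13 SR and Tra2 genes, 13 NMD transcripts of 7 genes have their stop in an exon outside the coding transcripts. Only 2 NMD transcripts of hnRNP and Ptbp genes do (Hnrnpl and Hnrnpll), while 9 transcripts of 5 such genes share the stop of a coding transcript and have junctions beyond it, and 16 have another premature stop. In Srsf3 and Srsf7 the poison exon stop falls inside the intron that the retained-intron transcripts keep, an intron of 2150 bases in Srsf3-204 and of 874 bases in Srsf7-206 and Srsf7-207. The map of exons shows these overlaps.

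**Figure D1:**
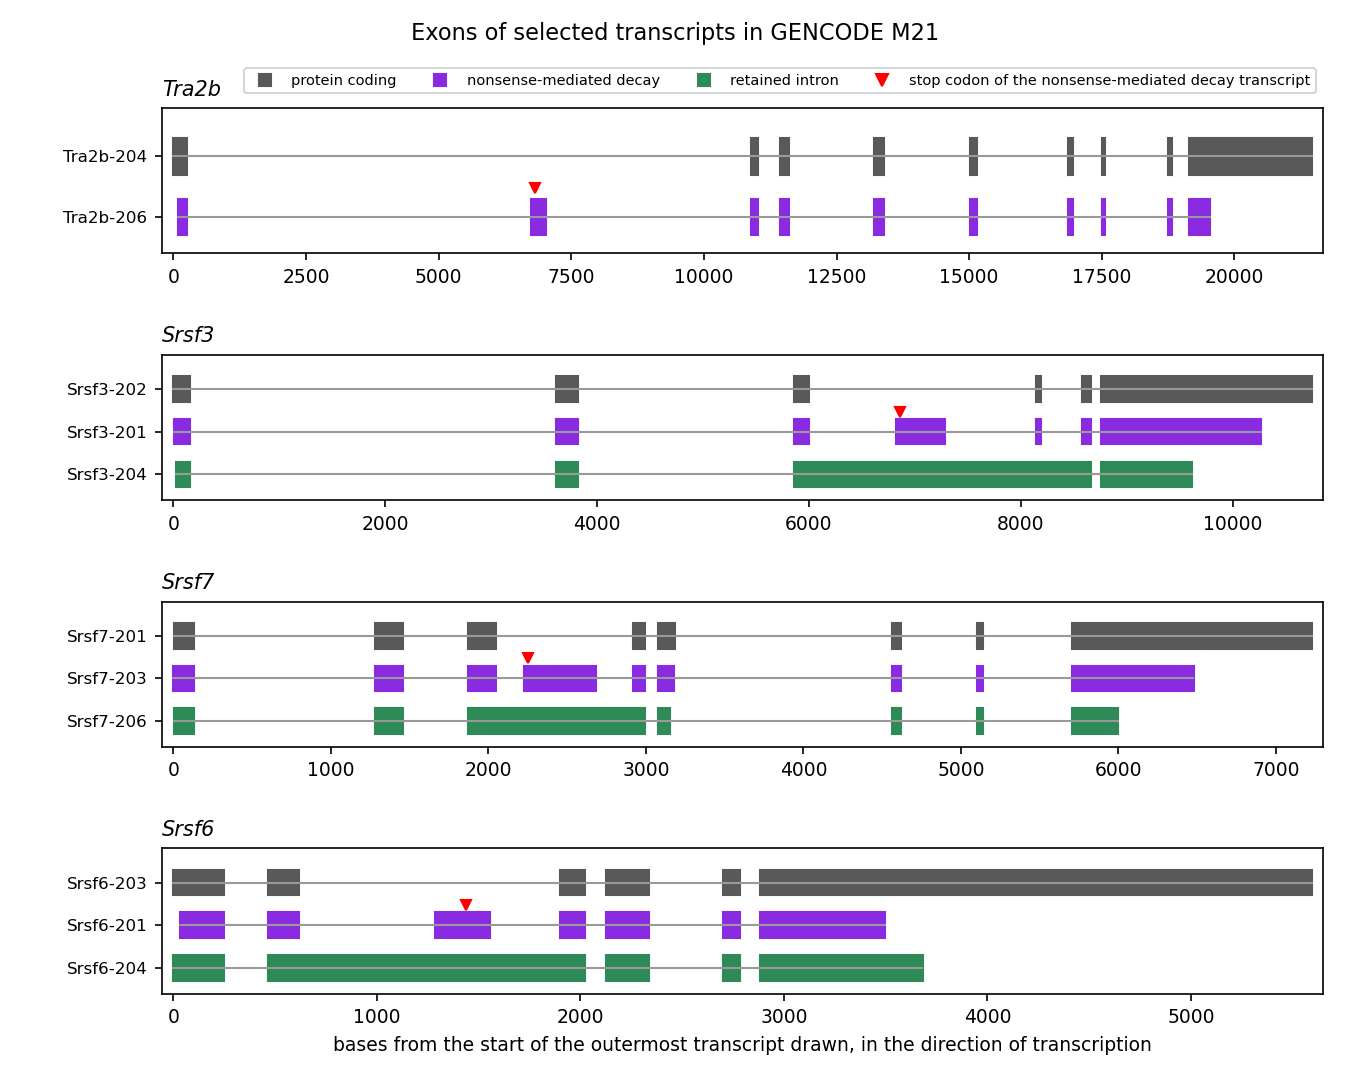
Exon maps of Tra2b, Srsf3, Srsf7 and Srsf6 in GENCODE M21, with distance in bases along the direction of transcription on the x axis and 1 row per transcript; colours give the annotated class and red triangles the stop codon of the NMD transcript. The Srsf3 and Srsf7 stops lie within the retained introns of 2150 and 874 bases, and the Tra2b poison exon of 276 bases stands alone in the first intron.

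Retained introns are shown for 3 of the 4 SR genes with the largest share of counts in such transcripts. The other, Srsf11, is not shown because none of its transcripts of this class spans a whole intron of a coding transcript. For each, the first line gives the last 3 exon bases in capitals and the first 12 intron bases, and the second the last 18 intron bases and the first 3 exon bases in capitals. All begin with gt and end with ag. Srsf5-212 keeps the intron at chr12:80947866-80949094 (GRCm38, plus strand, 1229 bases), Srsf7-206 that at chr17:80204388-80205261 (minus strand) and Srsf6-204 a region that includes chr2:162932143-162932814 (plus strand, 672 bases).
Srsf5-212 donor: CAGgtttgttgaaat
Srsf5-212 acceptor: taattgtcttgtgttaagGAT
Srsf7-206 donor: CAGgtatttaattaa
Srsf7-206 acceptor: ttctaacttaaaaaatagGTC
Srsf6-204 donor: GCAgtgagtccttac
Srsf6-204 acceptor: gatgtttcaatttgaaagTGA

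The libraries held 19735167 to 28608052 estimated counts. Adipocyte markers summed to 43970 to 47779 CPM (counts scaled to library size) in cold libraries and 43808 to 49443 CPM in ctrl libraries, and 2 of 10 were called. Cfd, the secreted protease adipsin, was lower in cold (log2 fold change -0.59, adjusted p = 0.0438 by edgeR) and Lep, the hormone leptin, higher (0.61, adjusted p = 0.0439 by edgeR). Endothelial markers summed to 1180 to 1387 CPM in cold libraries, against 1444 to 1485 CPM in ctrl libraries, and none of 8 was called, with 3 at an unadjusted p under 0.05. Smooth muscle and pericyte markers summed to 986 to 1123 CPM in cold libraries, against 1209 to 1243 CPM in ctrl libraries. Of these 8 genes 1 was called, Notch3, which was lower in cold (log2 fold change -0.36, adjusted p = 0.0446 by edgeR). The list was mixed, with 4 of 8 log2 fold changes above 0 and a median of -0.002. Much of the gap in the sum lay in Rgs5, which was not called. Rgs5 measured 295, 299 and 395 CPM in cold libraries, against 485, 558 and 434 CPM in ctrl libraries. Markers of duct epithelium, an epithelium that lies next to this fat pad, summed to 148 to 296 CPM in cold libraries and 9.08 to 39.9 CPM in ctrl libraries, with 4 of 10 tested genes higher past the threshold. Motile cilium markers summed to 67.2 to 214 CPM in cold libraries and 3.66 to 31.1 CPM in ctrl libraries, with 4 of 12 higher. Of all genes tested, 2.32% were higher past the threshold. The called genes Grhl2, Cdh1 and Prom2 (duct) and Tekt1 (cilium) did not reach the minimum count of 10 in every ctrl library. They entered the test through the cold group, where they are high, so their calls are not independent of the filter. Germ cell markers summed to 3.81 to 50.8 CPM in cold libraries and 0.289 to 3.71 CPM in ctrl libraries. The sums of macrophage, progenitor, mesothelium, skeletal muscle and nerve markers overlapped between groups, and no gene of these lists was called. No gene of the 11 marker lists was at 0 in all libraries. In bulk tissue, fewer cells of a type and less RNA per cell cannot be told apart.

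No splicing regulator gene was called between cold and ctrl by edgeR's quasi-likelihood test at an adjusted p under 0.05. Of the 48 genes, 44 passed the filter on low counts, 0 were called, and 7 (15.9%) had an unadjusted p under 0.05. Among all 17852 genes tested, 2.89% were called (2.32% higher and 0.566% lower in cold) and 17.6% had an unadjusted p under 0.05. DESeq2, run without the filter on low counts, called 2 of 48 regulators (4.17%), Rbfox3 and Srsf10, against 4.11% of 34828 genes. That wider set also holds genes with few counts, so its percentage is not on the same base as those of edgeR. The groups did not overlap for 11 of 44 regulators (25.0%), against a background of 23.8% of all genes. The 9 with all cold libraries above all ctrl libraries were Srsf10, Srsf3, Srsf2, Hnrnpab, Hnrnpu, Hnrnpdl, Rbfox3, Celf5 and Celf1, which is 20.5% against 12.7% of all genes. Celf5, also among the 7 with an unadjusted p under 0.05, passed the filter on low counts only through its cold libraries. The 2 with all cold libraries below were Tra2a and Mbnl1, 4.55% against 11.1%.

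The errors of these genes were small. The 95% interval of the fold change lay within 1.5-fold for 41 of 44 regulators, the others being Rbfox3, Celf5 and Celf3, and within 1.3-fold for 37. Their median log2 fold change, cold over ctrl, was 0.03, against -0.01 for all tested genes. The median standard error was 0.08 on the log2 scale, against 0.15 for all tested genes. The median coefficient of variation over 3 mice was 5.38% in cold and 4.18% in ctrl, against 11.1% in cold and 10.8% in ctrl for all tested genes. The regulators were also more abundant, with a median of 76.1 TPM (abundance scaled for transcript length) over the 44 tested genes, against 9.30 TPM for all tested genes. Together all 48 made up 0.497 to 0.547% of TPM in cold libraries and 0.531 to 0.540% in ctrl libraries.

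**Figure D2:**
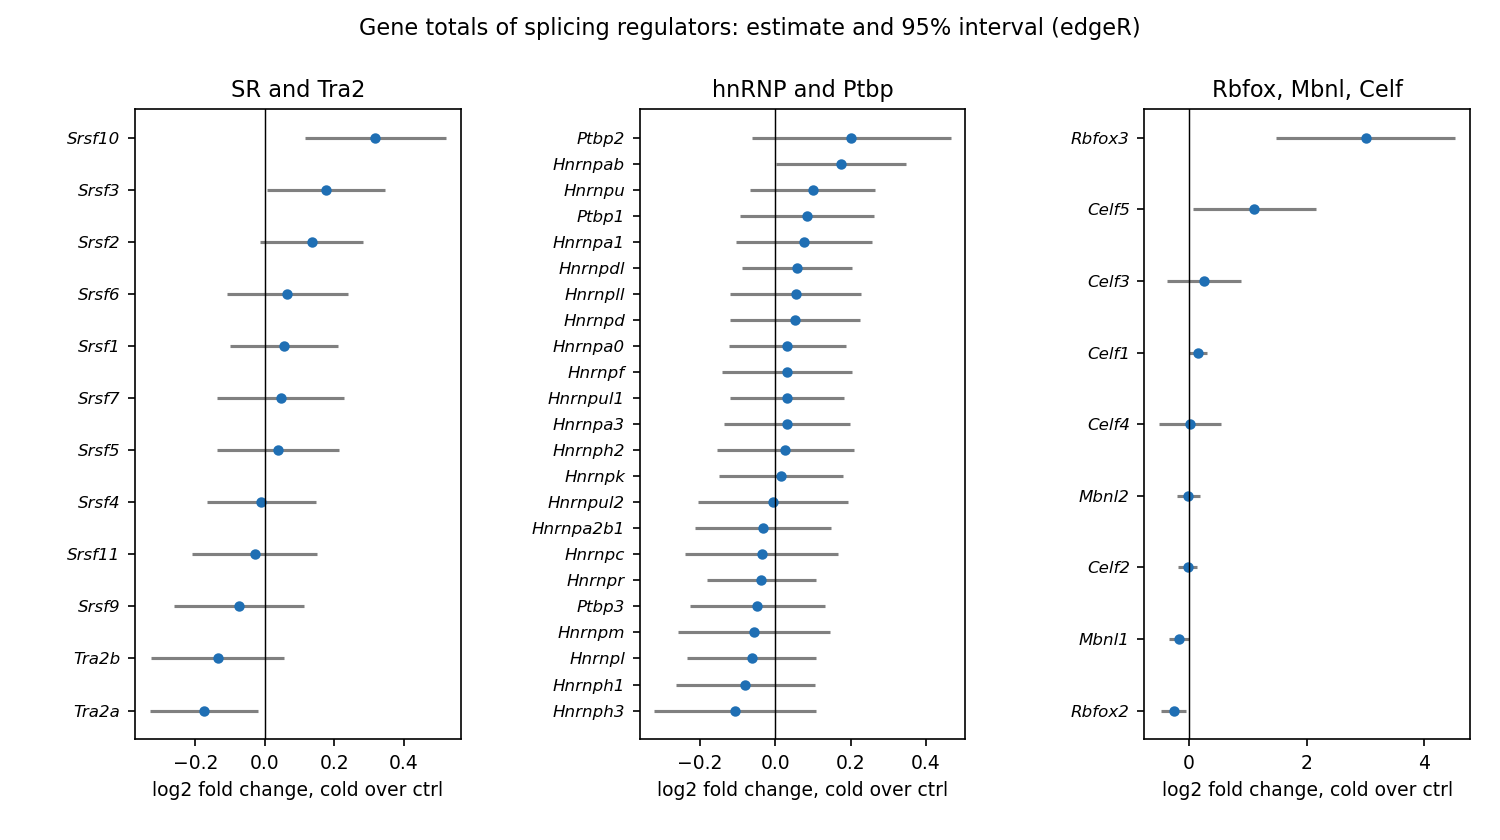
Log2 fold change of the gene total, cold over ctrl (x axis, different ranges per panel), for the 44 tested splicing regulators in 3 family panels; points are edgeR estimates from 3 cold and 3 ctrl libraries and lines their 95% intervals. Most intervals cross 0 within 1.5-fold, and Rbfox3 stands apart with a log2 fold change of 3.00.

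Among SR and Tra2 genes, Srsf5 (503 TPM over all libraries) and Srsf2 (214 TPM) were the most abundant. Srsf10, an SR protein that represses splicing when dephosphorylated and is known for its response to heat shock, had the smallest p of the family (chr4:135855747-135869908). It measured 77.4, 93.6 and 92.9 CPM in cold 7, cold 12 and cold 16, against 71.0, 73.0 and 67.9 CPM in ctrl 5, ctrl 6 and ctrl 10. The groups did not overlap, with cold 7 nearest to the controls. Its log2 fold change was 0.32 with an SE of 0.09 and missed the threshold in edgeR (adjusted p = 0.0996). It passed the threshold in DESeq2 (adjusted p = 0.0366) and in edgeR without cold 7 (log2 fold change 0.40, adjusted p = 0.0211), where 5.91% of all genes were called.

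Tra2a, an SR-like activator of exons rich in GAA repeats, was lower in every cold library. It measured 49.3, 50.2 and 52.1 CPM in cold libraries, against 58.7, 54.5 and 57.9 CPM in ctrl libraries (log2 fold change -0.18, SE 0.07, adjusted p = 0.222 by edgeR). Its paralog Tra2b, at 80.9, 94.3 and 80.5 CPM in cold libraries and 90.1, 98.7 and 92.3 CPM in ctrl libraries, overlapped between groups. Srsf3, the smallest SR protein, which also couples splicing to mRNA export, measured 176, 161 and 159 CPM in cold libraries, against 142, 142 and 154 CPM in ctrl libraries. All 3 cold values lay above the highest ctrl value (log2 fold change 0.18, SE 0.07, adjusted p = 0.263 by edgeR). Srsf2 measured 251, 253 and 254 CPM in cold libraries, against 225, 235 and 229 CPM in ctrl libraries (log2 fold change 0.13, SE 0.06, adjusted p = 0.343 by edgeR). Srsf2, which activates exons with C-rich or G-rich enhancers, thus also separated the groups by a small margin. Srsf5 measured 550, 587 and 600 CPM in cold libraries and 560, 583 and 549 CPM in ctrl libraries, and the groups overlapped. The other 6 tested members (Srsf1, Srsf4, Srsf6, Srsf7, Srsf9 and Srsf11) overlapped between groups, with log2 fold changes between -0.07 and 0.06. Srsf12 did not pass the filter, with 1 to 9 counts in cold libraries and 1 to 2 in ctrl libraries.

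The hnRNP and Ptbp genes were the most abundant family, with a median of 107.4 TPM, and none passed the test. Their 23 log2 fold changes ran from -0.11 to 0.20, with a median of 0.03. Hnrnpa2b1, which binds UAG-type motifs and sorts RNA for transport, led at 667 TPM, followed by Hnrnph1, a binder of G runs, at 388 TPM. Hnrnpa2b1 measured 625, 598 and 558 CPM in cold libraries and 592, 608 and 621 CPM in ctrl libraries, and Hnrnph1 overlapped likewise (log2 fold change -0.08). Hnrnpab had the smallest p of the family and measured 297, 263 and 270 CPM in cold libraries, against 239, 250 and 247 CPM in ctrl libraries. The groups did not overlap (log2 fold change 0.18, SE 0.08, adjusted p = 0.274 by edgeR). Hnrnpu, a nuclear scaffold protein that binds chromatin as well as RNA, was at 397, 392 and 370 CPM in cold libraries, against 349, 368 and 364 CPM in ctrl libraries. The margin between the groups was 370 against 368 CPM (log2 fold change 0.10, adjusted p = 0.554 by edgeR). Hnrnpdl separated by a like margin, with 135 to 137 CPM in cold libraries and 126 to 134 CPM in ctrl libraries. Hnrnph3 had a log2 fold change of -0.11 (SE 0.09) with overlapping groups.

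Ptbp1, the widely expressed polypyrimidine tract protein, and Ptbp2, its neuronal paralog, were both present. Ptbp2 measured 20.0, 25.0 and 26.3 CPM in cold libraries, against 19.6, 21.5 and 21.02 CPM in ctrl libraries, with cold 7 inside the ctrl range (log2 fold change 0.20, SE 0.11). Ptbp1 stood at 178 to 202 CPM in cold libraries and 176 to 192 CPM in ctrl libraries. The gene Hnrnpa3 is uncertain. The pseudogene Gm5641 shares 100% of its 31-base words with Hnrnpa3 transcripts, and Salmon's sharing of reads gave it 146 to 201 CPM in cold libraries and 130 to 152 CPM in ctrl libraries. Hnrnpa3 itself had 180 to 199 CPM in cold libraries and 180 to 195 CPM in ctrl libraries, and all 29 of its pseudogene copies together held 83.0% of its own mean count. For every other regulator with such copies, they held less than 0.07%.

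Among tissue regulators, Mbnl1 (77.0 TPM), Mbnl2 (75.2 TPM) and Celf2 (64.1 TPM) were the main members of this fat pad, with a median of only 1.91 TPM over all 12 genes. Rbfox3 had the largest fold change of all regulators. Rbfox3 encodes NeuN, a nuclear marker of mature neurons and a binder of the motif GCAUG (chr11:118489762-118911597). It measured 2.71, 9.99 and 10.2 CPM in cold 7, cold 12 and cold 16, against 1.57, 0.670 and 0.565 CPM in ctrl 5, ctrl 6 and ctrl 10. The groups did not overlap, with cold 12 and cold 16 far above cold 7, and ctrl 5 the highest control. Its log2 fold change of 3.00 (SE 0.63) missed the threshold in edgeR (adjusted p = 0.0640), and the 95% interval of the fold ran from 2.79 to 23.1. It passed with DESeq2 (log2 fold change 3.02, adjusted p = 2.76e-06) and in edgeR without cold 7 (3.40, adjusted p = 0.00576). Without both ctrl 5 and cold 7, an alternative chosen after seeing the data, Rbfox3 (4.02, adjusted p = 1.34e-04) and Srsf10 (0.41, adjusted p = 0.0467) passed, where 6.78% of all genes were called. This alternative leaves out the lowest cold and the highest ctrl value of Rbfox3, so its wider gap there was fixed by the choice.

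Rbfox3 shared its order of libraries in part with both the duct epithelium and the motile cilium markers. The motile cilium sum was 67.2, 214 and 175 CPM in cold 7, cold 12 and cold 16, against 31.1, 6.83 and 3.66 CPM in ctrl 5, ctrl 6 and ctrl 10. Both sums were lowest of the cold libraries in cold 7 and highest of the ctrl libraries in ctrl 5, as was Rbfox3. This order held for 2 of 44 regulators (4.55%), Rbfox3 and Tra2a, and for 14.8% of all tested genes. Nerve and Schwann cell markers without Rbfox3 summed to 44.5 to 52.5 CPM in cold libraries and 42.8 to 57.5 CPM in ctrl libraries, and none of 6 tested was called or had an unadjusted p under 0.05. The part of the duct epithelium, motile cilium and nerve signals in the Rbfox3 values was not tested.

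**Figure D3:**
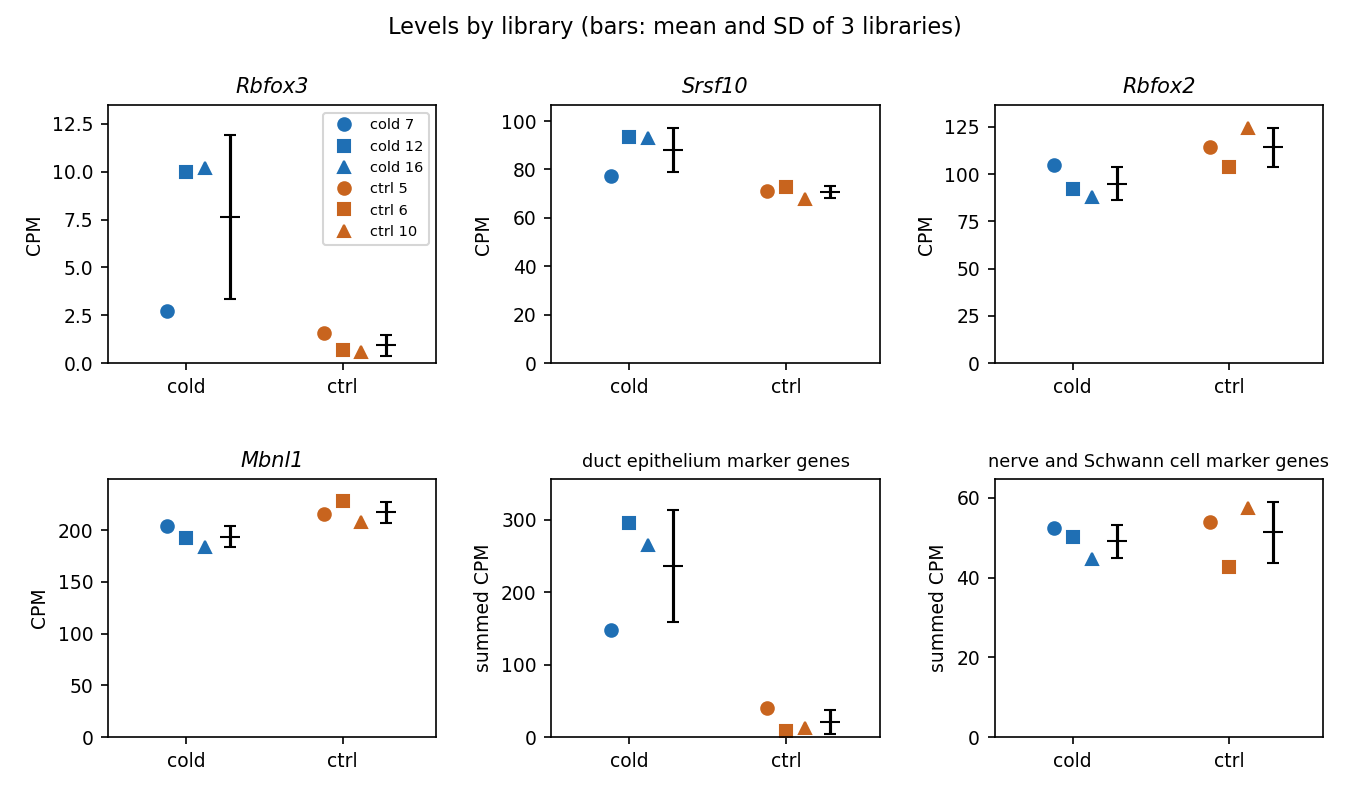
Levels in each library (CPM after TMM scaling, y axes from 0) of Rbfox3, Srsf10, Rbfox2 and Mbnl1, and summed CPM of the duct epithelium and nerve marker genes, with cold left and ctrl right; bars are the mean and SD of 3 libraries. The duct epithelium sum is far higher in every cold library than in any ctrl library. Rbfox3 is far higher in cold 12 and cold 16, but cold 7 (2.71 CPM) lies near ctrl 5 (1.57 CPM). The nerve sum overlaps between groups.

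Rbfox2, the widely expressed Rbfox gene, averaged 94.96 ± 8.91 CPM in cold and 114 ± 10.2 CPM in ctrl libraries (SD, n = 3 each). It measured 105, 92.2 and 87.7 CPM in cold libraries, against 114, 104 and 124 CPM in ctrl libraries, with cold 7 just above ctrl 6 (log2 fold change -0.27, SE 0.10, adjusted p = 0.190 by edgeR). Mbnl1, whose protein is trapped by repeat RNA in myotonic dystrophy, measured 204, 193 and 184 CPM in cold libraries, against 215, 229 and 208 CPM in ctrl libraries. All cold values were below the ctrl values (log2 fold change -0.17, SE 0.07, adjusted p = 0.299 by edgeR). Celf1, a CUG-binding protein, was at 102 to 112 CPM in cold libraries, against 94.3 to 98.7 CPM in ctrl libraries (log2 fold change 0.15, adjusted p = 0.308 by edgeR). Celf5, a brain member of the family, measured 0.788, 0.472 and 0.456 CPM in cold libraries, against 0.165, 0.313 and 0.308 CPM in ctrl libraries. These values rest on 12 to 18 and 4 to 7 counts per library (adjusted p = 0.253 by edgeR). Only the cold libraries reached the minimum count of 10, so Celf5 entered the test through the group where it is high. Its separation of the groups is therefore not independent of the filter. Mbnl2, Celf2, Celf3 and Celf4 overlapped between groups. Rbfox1, Mbnl3 and Celf6 did not pass the filter. Rbfox1 had 0 to 9 counts in cold libraries and 4 to 8 in ctrl libraries, Mbnl3 had 5 to 10 in cold and 3 to 13 in ctrl, and Celf6 had 1 in each cold library and 0 to 1 in ctrl libraries.

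NMD transcripts are annotated for 27 of the 48 regulators (56.2%), against 4571 of all 21815 protein-coding genes, and 31 of the 50 such transcripts had a mean of at least 10 counts. The share of a gene's counts assigned to NMD transcripts could be tested for 21 of the 27 genes. None passed the test by limma on the log2 odds of the share (0 of 21 at an adjusted p under 0.05, 0 of 21 at an unadjusted p under 0.05), and the groups overlapped for all 21. In all 1940 genes tested, 0.0% were called, 4.85% had an unadjusted p under 0.05 and 10.9% did not overlap. The 95% interval of the odds lay within 2-fold for 15 of 21 regulators. Celf4, Celf6, Hnrnpr, Ptbp3, Srsf5 and Srsf9 were not tested, with at most 0.629% of counts in this class in any library save for Celf6, which had 0 to 1 counts in all.

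The NMD shares of the tested regulators were not large beside those of all tested genes. Only genes with at least 10 counts in the class were tested, and a gene with few counts reaches that only with a large share. The more abundant regulators could enter with small shares, so the sets are not alike. Summed without that filter, the class took a larger part of regulator counts than of all protein-coding counts, as given below. The median over the 21 tested regulators was 6.92% of counts, against 10.4% for all 1940 tested genes. By TPM the medians were 13.5% and 12.9%. A share of at least 10% of counts was found in 33.3% of these regulators, against 51.1% of all tested genes. In the regulators with the largest NMD shares the annotated form was a large part of the RNA. In Hnrnpu the share was 48.8, 43.7 and 41.0% in cold libraries and 40.9, 44.0 and 41.0% in ctrl libraries, nearly all of it Hnrnpu-206, which adds 3 exons of 122, 94 and 51 bases. Only cold 7 lay above the ctrl range (log2 odds difference 0.15, SE 0.13). In Hnrnpa1, a repressor that loops out exons, it was 40.0, 44.0 and 42.3% in cold libraries and 44.0, 41.4 and 41.3% in ctrl libraries, divided between Hnrnpa1-203 and Hnrnpa1-204. Both keep the stop of a coding transcript and splice 2 exons of 76 and 148 bases beyond it. In Tra2a the poison exon form held 30.3, 36.8 and 34.3% in cold libraries and 30.4, 35.9 and 39.8% in ctrl libraries. These 3 genes thus varied as much within a group as between groups, with 95% intervals of the odds of 0.886 to 1.38, 0.834 to 1.19 and 0.662 to 1.32 for cold over ctrl. By counts, Hnrnph3 (29.2% over all libraries), Hnrnpdl (19.7%), Hnrnpll (16.0%) and Tra2b (10.7%) followed, and the other 14 tested genes were under 10%. By TPM, which allows for transcript length, the same 3 genes led, but 9 of 21 genes were under 10% and Ptbp2 came next at 22.7% of TPM (6.67% of counts). Srsf4 (15.7% of TPM, 5.36% of counts), Srsf1 (14.4% of TPM, 6.92% of counts), Srsf6 (13.5% of TPM, 7.49% of counts) and Hnrnpd (12.2% of TPM, 5.88% of counts) were also above 10% by TPM alone.

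Ptbp1 had the smallest p of the NMD shares. Its NMD class, led by Ptbp1-201, held 4.35, 7.05 and 3.90% of counts in cold libraries, against 7.55, 5.83 and 9.81% in ctrl libraries. The groups overlapped through cold 12 (log2 odds difference -0.66, SE 0.32, unadjusted p = 0.0813, adjusted p = 0.903 by limma). Hnrnpa2b1 was at 2.98, 3.01 and 2.30% in cold libraries and 2.55, 2.14 and 2.29% in ctrl libraries. Srsf4, a large SR protein, was at 5.78, 4.73 and 4.12% in cold libraries and 5.55, 6.82 and 5.18% in ctrl libraries. Hnrnpll, the hnRNP L paralog that controls Cd45 exons in lymphocytes, spread widely, with 18.4, 13.0 and 9.05% in cold libraries and 28.0, 11.9 and 15.7% in ctrl libraries. None of these 4 genes separated the groups. Summed over all 48 regulators, NMD transcripts took 6.08 to 6.43% of counts in cold libraries, against 5.90 to 6.05% in ctrl libraries. All protein-coding genes together showed a like small gap, with 2.01 to 2.06% in cold libraries and 1.96 to 1.99% in ctrl libraries.

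**Figure D4:**
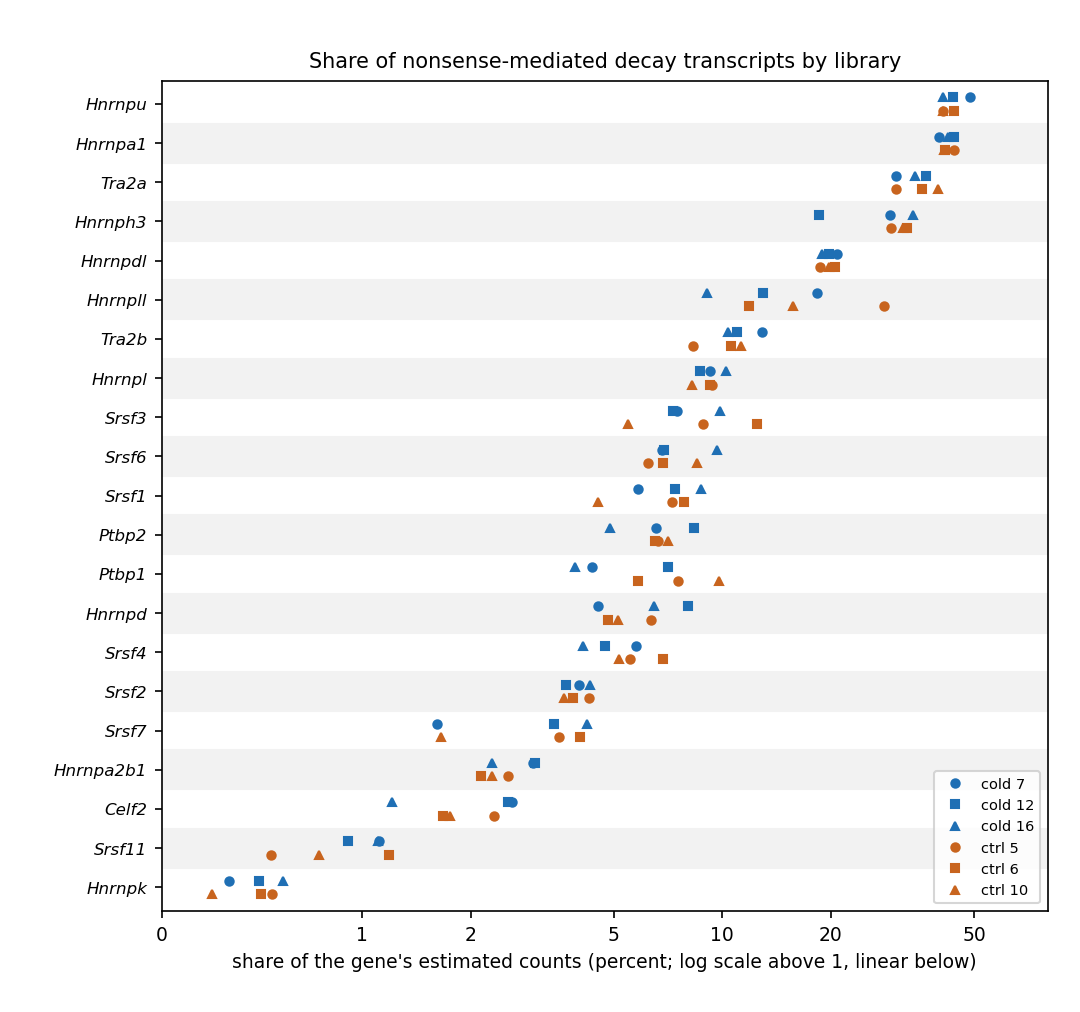
Share of each gene's estimated counts assigned to annotated NMD transcripts (x axis in percent, log scale above 1 and linear below) in each library for the 21 tested regulators, cold above ctrl in each row. Hnrnpu, Hnrnpa1 and Tra2a carry the largest shares, and the groups overlap in every row.

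Retained-intron transcripts are annotated for 36 of the 48 regulators (75.0%), against 41.8% of all protein-coding genes, and 62 of the 116 such transcripts had a mean of at least 10 counts. Of 26 genes tested, 0 were called by limma, 2 (7.69%) had an unadjusted p under 0.05 and 2 (7.69%) did not overlap between groups. In all 5013 genes tested, 0.0% were called, 5.03% had an unadjusted p under 0.05 and 11.1% did not overlap. The 95% interval of the odds lay within 2-fold for 22 of 26 regulators. The other 10 genes were not tested, among them Celf3, whose few counts were 89.0 to 100% retained intron in cold libraries and 83.1 to 100% in ctrl libraries.

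By counts, SR genes had a median share of 26.6% in this class over 10 tested genes, against 5.67% for 13 hnRNP and Ptbp genes and 0.73% for 3 tissue regulators. The median was 7.76% over all 26 tested regulators and 6.75% over all 5013 tested genes. By TPM the medians lay closer, at 30.1% for SR genes, 15.5% for hnRNP and Ptbp genes and 0.67% for tissue regulators. Over all 26 tested regulators it was 16.1% of TPM, against 14.0% for all tested genes. Srsf5 had the largest share of counts, with 63.6, 64.3 and 62.1% in cold libraries and 64.5, 62.7 and 59.6% in ctrl libraries, nearly all of it Srsf5-212, which keeps the intron of 1229 bases shown above. Srsf11 came next by counts, with 52.4, 54.0 and 43.4% in cold libraries and 54.2, 50.8 and 45.4% in ctrl libraries. Both genes overlapped between groups, with 95% intervals of the odds of 0.862 to 1.27 and 0.726 to 1.35. By TPM the order was reversed, with 62.8% for Srsf11 and 43.5% for Srsf5 over all libraries, followed by Srsf1 at 42.02% (14.1% of counts), Hnrnpl at 37.8% (20.8% of counts) and Hnrnph3 at 37.1% (16.4% of counts). Srsf5 alone held 52.7 to 56.5% of all retained-intron counts of SR genes in cold libraries and 51.6 to 54.9% in ctrl libraries. Without Srsf5, the summed SR share was 21.1 to 24.3% in cold libraries and 22.8 to 24.1% in ctrl libraries.

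The 2 genes whose groups did not overlap differed in opposite directions, and neither passed the adjusted threshold. Hnrnph3, a G-run binder of the hnRNP H family, had 18.9, 19.3 and 18.0% in cold libraries, against 15.2, 15.3 and 12.0% in ctrl libraries. Its counts sit in Hnrnph3-205 and Hnrnph3-206, which keep introns of 185 and 430 bases (log2 odds difference 0.49, SE 0.19, unadjusted p = 0.0286, adjusted p = 0.892 by limma). Srsf6, an SR protein that binds purine-rich enhancers, had 32.0, 36.6 and 30.8% in cold libraries, against 39.9, 37.5 and 39.0% in ctrl libraries, all of it Srsf6-204. The groups were separated by a narrow gap between 36.6% in cold 12 and 37.5% in ctrl 6 (log2 odds difference -0.36, SE 0.14, unadjusted p = 0.0342, adjusted p = 0.892 by limma). Its coding transcript Srsf6-203 was at 61.2, 56.5 and 59.6% in cold libraries, against 53.9, 55.6 and 52.4% in ctrl libraries.

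Srsf7, whose poison exon lies inside its retained intron, had 32.5, 43.0 and 36.3% retained intron in cold libraries, against 32.7, 30.99 and 30.9% in ctrl libraries. Cold 7 lay within the ctrl range (log2 odds difference 0.36, SE 0.19). Srsf2 had 27.4, 29.9 and 26.4% in cold libraries, against 31.9, 29.7 and 30.1% in ctrl libraries, overlapping through cold 12. Hnrnpul2 was among the 5 smallest p with shares under 1% in every library, 0.408 to 0.691% in cold and 0.279 to 0.532% in ctrl. Summed over the SR genes the retained-intron share was 33.6 to 36.1% in cold libraries and 33.9 to 36.4% in ctrl libraries, and over all protein-coding genes 3.56 to 3.99% in cold and 3.79 to 4.01% in ctrl. The groups overlapped in both sums.

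**Figure D5:**
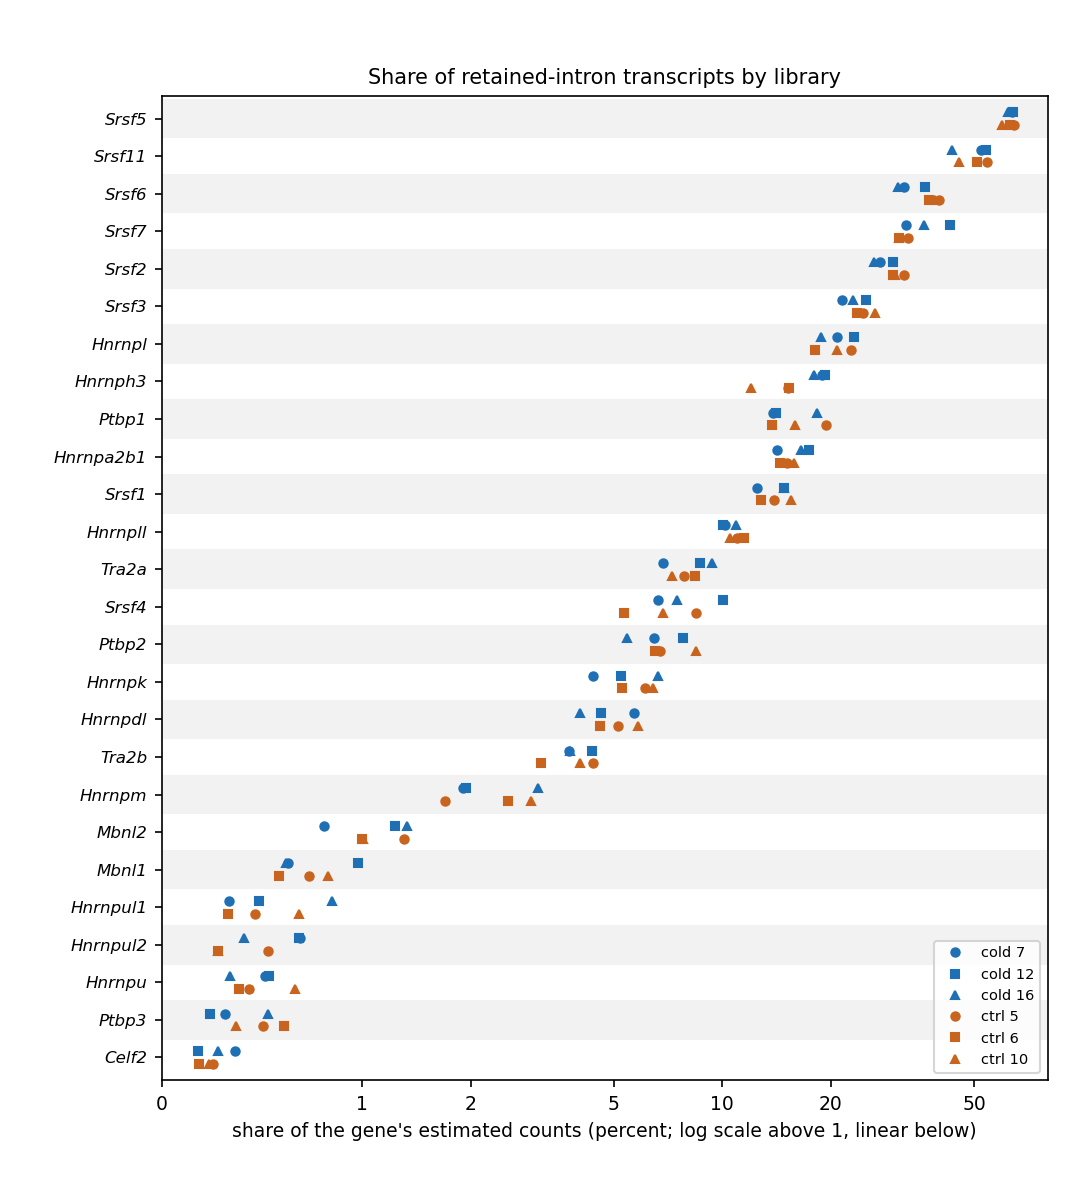
Share of each gene's estimated counts assigned to annotated retained-intron transcripts (x axis in percent, log scale above 1 and linear below) in each library for the 26 tested regulators, cold above ctrl in each row. SR genes fill the top 6 rows, and the groups separate only in Srsf6 and Hnrnph3.

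Single transcripts were compared by their share within the gene. Of 251 regulator transcripts tested by limma, 0 were called and 14 (5.58%) had an unadjusted p under 0.05, and of 34353 transcripts in all 0.00873% were called and 4.89% had an unadjusted p under 0.05. The groups did not overlap for 27 regulator transcripts (10.8%), against 11.1% of all transcripts. The smallest adjusted p of any regulator transcript was 0.939, and the median standard error was 0.29 on the log2 odds scale. The smallest p belonged to Rbfox2-201, a coding transcript with 0 counts in each cold library, against 42, 26 and 33 counts in ctrl 5, ctrl 6 and ctrl 10. Those counts are 1.12 to 1.52% of the Rbfox2 RNA in ctrl libraries. Only the ctrl libraries reached the minimum count of 10, so Rbfox2-201 entered the test through the group where it is high. Its p-values are therefore not independent of the filter. Among the alternatives run, Rbfox2-201 was called only by limma without trend and robust estimation (adjusted p = 0.00122), where 0.314% of all transcripts were called.

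Srsf7-206, the retained-intron form, had 28.99, 34.5 and 16.2% of the gene in cold libraries, against 9.93, 6.98 and 11.1% in ctrl libraries. The other form with the same intron, Srsf7-207, ran the other way, with 0.0, 4.02 and 15.8% in cold libraries, against 20.7, 19.2 and 17.8% in ctrl libraries. The sum of both varied less than either, and how Salmon divided reads between them was not tested. Mbnl2-201, a coding transcript of the muscleblind gene, was at 22.1, 22.6 and 24.1% in cold libraries, against 17.6, 17.1 and 17.8% in ctrl libraries (log2 odds difference 0.49, SE 0.13). Hnrnpf-201 was at 28.7, 30.0 and 27.7% in cold libraries, against 25.8, 17.5 and 18.9% in ctrl libraries. Hnrnpl-202 was lower in cold, at 6.15, 9.67 and 12.3%, against 14.0, 19.6 and 13.3% in ctrl libraries. Hnrnpl-211 was also lower, at 3.38 to 4.01% in cold libraries, against 4.52 to 5.34% in ctrl libraries. Hnrnpm-209, a short noncoding form, took 0.595 to 0.946% in cold libraries and 0.457 to 0.480% in ctrl libraries. None of these passed the adjusted threshold. Hnrnpa2b1-209, an NMD form at 0.75 to 1.89% in cold libraries and 0.0 to 1.11% in ctrl libraries, was called only without ctrl 5 (adjusted p = 0.0471), where 0.0431% of all transcripts were called.

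Genes that act on these regulators, or beside them, were also compared by edgeR. Of 10 kinases of SR proteins, none was called and 0 had an unadjusted p under 0.05 (median log2 fold change -0.03), and the smallest p belonged to Clk3 (-0.11, adjusted p = 0.488), Dyrk1a and Clk4. Of 12 NMD factors, none was called and 4 (33.3%) had an unadjusted p under 0.05, against 17.6% of all genes (median log2 fold change 0.01). Upf3b, which links the exon junction complex to the decay machinery, measured 27.2, 27.1 and 29.9 CPM in cold libraries, against 23.6, 23.5 and 20.2 CPM in ctrl libraries (log2 fold change 0.32, SE 0.09, adjusted p = 0.106 by edgeR). The endonuclease gene Smg6 had a log2 fold change of -0.25 and the helicase gene Dhx34 one of -0.28, and neither passed. Of 8 exon junction complex genes none was called and 1 had an unadjusted p under 0.05 (median -0.01), with Magoh at 0.26 (adjusted p = 0.166 by edgeR), Sap18 and Casc3 the smallest p. None of 30 core spliceosome genes was called and 1 had an unadjusted p under 0.05 (median -0.003), with Snrpf, Snrpe and Snrpg, which encode Sm ring proteins, at log2 fold changes of 0.20, 0.20 and 0.20. Of 39 tested genes among other splicing regulators, 1 was called (2.56%, against 2.89% of all genes), Esrp2, an epithelial splicing regulator, and 8 (20.5%) had an unadjusted p under 0.05, against 17.6% of all genes (median log2 fold change 0.02). Esrp2 measured 1.79, 4.63 and 2.75 CPM in cold libraries, against 0.652, 0.572 and 0.685 CPM in ctrl libraries (log2 fold change 2.26, SE 0.39, adjusted p = 0.0330 by edgeR). Its paralog Esrp1 (2.39, adjusted p = 0.0955 by edgeR) and Rbm38 (0.61, adjusted p = 0.0617 by edgeR) did not pass. All genes called by edgeR on the 6 libraries share 1 limit, among them Esrp2, Cfd, Lep, Notch3 and the duct epithelium and cilium genes. No gene of the whole table was called without ctrl 6, without ctrl 10 or without cold 12.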

How the data were processed

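Poly(A) RNA of 3 cold and 3 ctrl mice was sequenced as strand-specific libraries with paired reads of 50 nt, per the labels' protocols. The submitters' processing notes name bcl2fastq, cutadapt, Salmon and GRCm38, without versions or settings. The authors deposited estimated counts per transcript, which Salmon shares among overlapping transcripts, and TPM. Of 140658 transcripts, 139921 matched GENCODE M21 with version and 140137 without. The other 521 (0.124 to 0.394% of counts) were left out.

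Estimated counts were summed per gene, rounded and tested with edgeR 4.0.16 in R 4.3.3 (TMM, filterByExpr with a minimum count of 10 and total of 15, robust quasi-likelihood, two-sided, Benjamini-Hochberg over all genes). Class and transcript shares were tested with limma 3.58.1 (trend, robust) on log2 odds with 0.5 added, over genes with at least 10 counts in the class and outside it in 3 libraries. Alternatives were RLE scaling, DESeq2 1.42.0, a length offset, other filters and priors, shares of TPM, and each library left out. Steps were tested on simulated data. The gene test recovered a minority of 1.5-fold changes, the retained-intron test a minority of 2-fold changes, the NMD test a minority of 2-fold and 4-fold changes, and the transcript test almost none of either size. The length offset used the deposited effective lengths.

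Members and gene lists were chosen with earlier results of these data known. Named were, per family, the 4 smallest gene p and 2 highest TPM, the 5 smallest p and 3 highest shares per class, 8 transcripts, and 3 genes per pathway list; the other genes named were chosen after their values were seen. The sequences come from GENCODE M21 transcripts. Precision is limited by 3 mice per group, and the uncertainty of read sharing between transcripts is not modelled.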

Additional observations from a re-analysis of the deposited data

How the results depend on the processing

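No paired analysis was possible because the mouse numbers differ between groups. The count of regulator genes called, 0, became 2 with DESeq2 and 2 with ctrl 5 and cold 7 both left out, a setting chosen after seeing the data, and ran from 0 to 2 with 1 library left out. Over all genes the 516 calls became 924 with no low-count filter, 1432 with DESeq2 and 1230 with both libraries left out, and ran from 0 to 1090 with 1 library left out. Over all NMD shares the 0 calls became 5 with limma's plain prior and ran from 0 to 2 with 1 library left out. Over all retained-intron shares they became 2 and ran from 0 to 1. No regulator's NMD or retained-intron share was called under any of these settings. Over regulator transcripts the 0 calls became 1 with the plain prior, and ran from 0 to 1 with 1 library left out. Over all transcripts the 3 calls became 0 by TPM, 33 with no filter, 0 at a minimum of 50 counts, 108 with the plain prior and 0 with both libraries left out, and ran from 2 to 14 with 1 library left out.

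Reversals concerned values near 0. On the log2 scale, Hnrnph3 became 0.0433 with the length offset, Mbnl2 ran from -0.0794 to 0.0421 with 1 library left out and was 0.0502 with both left out, and Hnrnpa2b1 ran from -0.0731 to 0.00832. For NMD shares, Hnrnpa1 ran from -0.0652 to 0.0535 and was 0.11 with both left out, Tra2a ran from -0.26 to 0.0433, and Hnrnpu was -0.0128 with both left out. For retained-intron shares, Srsf11 ran from -0.15 to 0.18 and was 0.0337 with both left out, and Srsf5 ran from -0.0186 to 0.13. Of the values for single genes and transcripts, 410 kept their direction and side of the threshold, 7 newly passed it and 16 reversed. The cause of these shifts was not tested.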
